A study of Mus musculus with 4 samples.

Results

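Phase II conjugation enzymes join a foreign or waste molecule to a water-soluble group, so that it can leave the cell in bile or urine. The members were all genes whose symbol in the platform table begins with Gsta, Gstm, Gstp, Gstt, Gstk, Gsto or Gstz (cytosolic, mitochondrial and related glutathione transferases), Ugt (UDP-glycosyltransferases) or Sult (sulfotransferases). This rule uses names only and gave 44 of the 18193 genes on the array, of which 20 are Gst, 11 Ugt and 13 Sult genes. The brightest probe set on average stood for each gene, and 5 probe sets that name several genes are reported apart. Of the 44 members, 34 were brighter on average than the median probe set and were tested, namely 18 Gst, 9 Ugt and 7 Sult genes. Their values were read on 4 Affymetrix mouse arrays, with 2 samples each for PBS and G-CSF.

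All samples came from C57BL/6 mice whose livers had been made fibrotic with 30 injections of carbon tetrachloride at 1 ml/kg. During the last 7 days the G-CSF group received recombinant human granulocyte colony-stimulating factor, a cytokine that drives neutrophil production, at 100 µg/kg. The PBS group received the vehicle, phosphate-buffered saline with 0.1% mouse serum albumin. The sex and age of the mice, and whether each sample was 1 animal or a pool, are not given in the sources used here, so p-values measure only the spread between these samples, which may be technical. The question the design poses is which transcripts differ between the G-CSF and PBS samples.

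Glutathione transferases couple electrophiles to the thiol of glutathione, UDP-glucuronosyltransferases add glucuronic acid from UDP-glucuronate to hydroxyl, carboxyl or amine groups, and sulfotransferases move a sulfonate from the donor PAPS to phenols, steroids and amines. In liver these enzymes are made mainly by hepatocytes, many of them under the liver-enriched factors HNF1, HNF4 and C/EBP, and several are inducible through NRF2, a stress-responsive factor that binds the antioxidant response element. Carbon tetrachloride itself is activated by Cyp2e1 in hepatocytes around the central vein, where many conjugation enzymes are also concentrated.

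The labels call the material bone marrow-derived cells and also liver tissue, and the sources used here name no sorting step. All 16 tested hepatocyte markers lay above the background of the array on each of the 4 arrays, so hepatocyte RNA was present throughout. Their summed signal was lowest in PBS replicate 1 (220144) and highest in PBS replicate 2 (440869.6), with 369557 and 334975 in G-CSF replicates 1 and 2. The T cell markers ran the other way, with a summed signal over 12 genes of 50499 in PBS replicate 1 against 938 to 1160.0 on the other arrays. Rag1 and Dntt, which act in developing lymphocytes, had signals of 6016 and 20056 in PBS replicate 1 and at most 2.20 and 94.0 elsewhere, genes picked after their values were seen. Neutrophil markers summed to 29181 and 18013 (PBS) and to 313224 and 266824 (G-CSF) over 15 genes. In these bulk samples fewer cells of a type and less RNA per cell cannot be told apart. The ratio of 3' to 5' Gapdh signal, a measure of RNA integrity, was 15.7 and 14.8 (PBS) and 20.2 and 19.1 (G-CSF), and the part of this or of cell mixture in the results below was not tested.

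The 5 promoter windows here show sequences of chosen members, and each was printed because it holds a match to a motif named below. No result rests on them. They are the 150 bases before the RefSeq transcript start in build GRCm38.p6, written 5′ to 3′ on the gene's strand. Gsta3, Ugt2a3, Ugt2b36 and Ugt2b5 are members that varied together over the arrays, and Gstm5 is the member with the largest difference between the groups. Capitals mark matches, on either strand, to the antioxidant response element core TGACNNNGC (Gsta3, the second capital run, and Gstm5), to the HNF1-type motif (Ugt2a3), or to the C/EBP-type motif TTGCNNAA (the first capital run of Gsta3, Ugt2b36 and Ugt2b5). No match overlaps another in these windows.
Gsta3, chr1:21240435-21240584, plus strand: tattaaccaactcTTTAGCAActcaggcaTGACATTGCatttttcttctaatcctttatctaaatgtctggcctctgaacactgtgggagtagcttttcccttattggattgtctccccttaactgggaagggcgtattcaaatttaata
Gstm5, chr3:107895704-107895853, plus strand: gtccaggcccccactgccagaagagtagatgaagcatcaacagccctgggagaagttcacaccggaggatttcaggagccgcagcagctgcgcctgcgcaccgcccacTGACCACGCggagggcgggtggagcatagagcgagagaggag
Ugt2a3, chr5:87337196-87337345, minus strand: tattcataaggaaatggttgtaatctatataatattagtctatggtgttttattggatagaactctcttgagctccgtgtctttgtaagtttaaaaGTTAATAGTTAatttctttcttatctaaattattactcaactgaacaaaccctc
Ugt2b36, chr5:87092556-87092705, minus strand: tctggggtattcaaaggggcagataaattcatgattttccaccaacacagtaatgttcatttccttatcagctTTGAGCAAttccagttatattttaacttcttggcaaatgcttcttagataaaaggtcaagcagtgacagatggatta
Ugt2b5, chr5:87140341-87140490, minus strand: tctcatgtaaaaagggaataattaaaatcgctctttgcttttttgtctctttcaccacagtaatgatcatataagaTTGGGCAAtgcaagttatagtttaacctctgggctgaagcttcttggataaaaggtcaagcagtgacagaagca
Promoters running from 250 bases before to 50 after the start were found for 39 of the 44 members (50 promoters). TGACNNNGC occurred in 3 of the 50 (6.0%, in Gsta3, Gstm5 and Gstm7) against 12.4% of all 32851 promoters. The HNF1-type motif occurred in 2 (4.0%, in Ugt2a3 and Ugt3a1) against 0.314% of all promoters. TTGCNNAA occurred in 10 (20%) against 10.8%. Gsta2, Gstm1, Ugt2b34 and Ugt2b35 were, like Gsta3, lowest in PBS replicate 1 and highest in PBS replicate 2. They had no match to any of these motifs. These are descriptions of letters in a window and not of bound factors. The neighbours Ugt2b36 and Ugt2b5 were identical at 109 of 137 aligned bases of the printed windows (79.6%), and their matches begin at positions −77 and −74 from the start.

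None of the conjugation enzymes was called different between G-CSF and PBS. By limma with Benjamini-Hochberg adjustment over 12187 genes, 0 of the 34 tested members passed at an adjusted p of 0.05 (background 0% of tested genes), and the smallest adjusted p was 0.988. At an unadjusted p below 0.05 there were also 0 members, against 3.52% of all tested genes. Differences are the G-CSF mean less the PBS mean of log2(signal + 23). Their median was 0.16 over the members and 0.07 over all tested genes, and 25 members lay above 0 (55.9% of all). It was 0.24 over the Gst, 0.04 over the Ugt and 0.14 over the Sult members, and single members ran from −0.58 (Sult2a8) to 0.98 (Gstm5). These values do not show that the enzymes were alike in both groups. For 25 of the 34 members the 95% confidence interval of the difference included a 2-fold change in both directions, and the median half-width was 1.76. Exact permutation of these 4 samples gives one gene a two-sided p of 0.333 at the smallest.

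**Figure D1:**
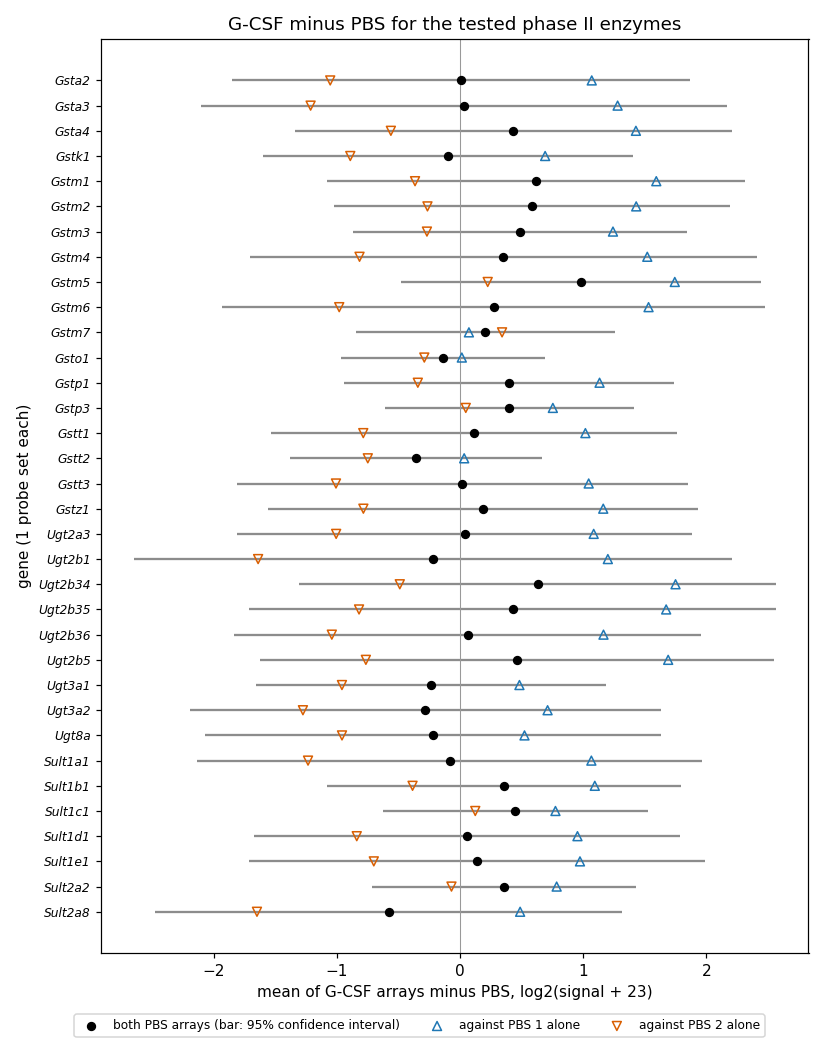
Difference between the mean of the G-CSF arrays and PBS for the 34 tested members on the log2(signal + 23) scale (x axis, one gene per line). Black points use both PBS arrays with the 95% confidence interval as a bar, and triangles use 1 PBS array alone; all bars include 0, and the triangles for PBS 1 lie right of 0 for all 34 members and those for PBS 2 left of it for 30.

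The spread of most members lay mainly within the PBS group. For Gstm7 and Gsto1 the G-CSF arrays were further apart than the PBS arrays. PBS replicate 1 was the lowest of the 4 arrays for 30 of the 34 members (47% of all tested genes; Gstm6, Sult1c1 and Sult1e1 were below its background there), and PBS replicate 2 was the highest for 29 (28.4% of all). PBS replicate 1 was at least 2-fold below all other arrays for 15 (9.17% of all). For 26 members PBS replicate 1 was lowest and PBS replicate 2 highest (21.8% of all), so that the G-CSF arrays fell between the PBS arrays. PBS replicate 2 was at least 2-fold above PBS replicate 1 for 28 members (20% of all) and at least 4-fold above it for 13 (2.78% of all). The median of PBS replicate 1 minus PBS replicate 2 was −1.88 over the members and −0.16 over all tested genes. In the same subtraction the hepatocyte markers had a median of −1.53, endothelial markers −1.43, macrophage and Kupffer cell markers −1.25 and T cell markers 4.58. The median T cell marker signal was 2495 in PBS replicate 1 and 94.0 in PBS replicate 2, where 6 of 12 lay above background. A gene could pass the filter on mean signal through PBS replicate 1 alone, so the size of the T cell value is partly set by the filter. The G-CSF arrays lay close together, with a median absolute difference of 0.26 over the members against 0.21 over all genes.

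**Figure D2:**
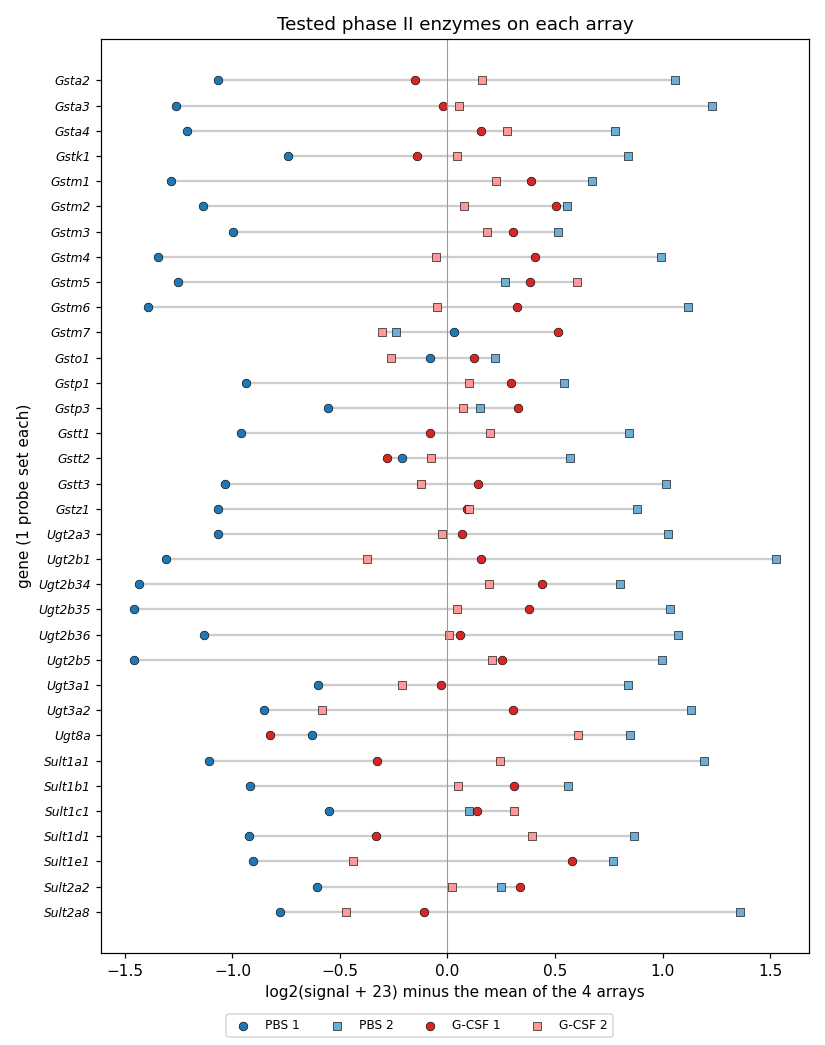
Each tested member on each array, as log2(signal + 23) minus the gene's mean over the 4 arrays (x axis), one gene per line; blue marks PBS and red G-CSF, circles replicate 1 and squares replicate 2. PBS 1 is the leftmost point for 30 of the 34 genes and PBS 2 the rightmost for 29.

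For 30 of the 34 members the difference lay above 0 against PBS replicate 1 alone and below 0 against PBS replicate 2 alone. The other members, Gstm5, Gstm7, Gstp3 and Sult1c1, lay above 0 against either. Without PBS replicate 1, 7 members were called lower with G-CSF by limma at an adjusted p of 0.05, where 1.45% of all genes were called lower, and 0 were called higher. They were Gsta2, Gsta3, Ugt2a3, Ugt2b1, Ugt2b36, Ugt2b5 and Sult2a8, and the median over the members was −0.79 against 0.00066 over all genes. Without PBS replicate 2, 23 members were called higher, where 22.6% of all genes were, and 0 lower, with a member median of 1.08. In each of these fits the lone PBS array is assumed to vary like the G-CSF arrays. Leaving out G-CSF replicate 1 or G-CSF replicate 2 gave 0 called members, with 0.0492% and 0.181% of all genes called higher and 0% lower.

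The alpha class glutathione transferases, abundant hepatocyte enzymes that also reduce lipid peroxides, had among the wider spreads between the PBS arrays. The Gsta2 signals were 3358 and 14708 on the PBS arrays and 6349 and 7879 on the G-CSF arrays. The G-CSF values lay inside the PBS range, and the difference was 0.01 ± 0.73 (SE, n = 2 arrays per group; limma adjusted p = 0.999). Gsta3 had 1512 and 8615 on the PBS arrays and 3605 and 3804 on the G-CSF arrays, a 5.70-fold gap between the PBS arrays against nearly equal G-CSF arrays. A second Gsta3 probe set gave a difference of 0.55 in place of 0.03, with a PBS gap of 3.31-fold. Gsta4, which favours the lipid peroxidation product 4-hydroxynonenal, had 1079.8 and 4356 on the PBS arrays and 2826 and 3068 on the G-CSF arrays. A probe set shared by Gsta1, Gsta2 and Gm3776 had 2352 and 8285 on the PBS arrays and 4590.3 and 5535 on the G-CSF arrays. All of these alpha class probe sets thus showed PBS replicate 1 lowest and PBS replicate 2 highest.

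The mu class genes lie side by side on chromosome 3 in the order Gstm5, Gstm7, Gstm6, Gstm3, Gstm2, Gstm1 and Gstm4, with no other protein-coding gene between them in the RefSeq table. All 7 were tested, and all 7 differences lay above 0, with a median of 0.49. Centring on hepatocyte markers, an alternative chosen after the data were seen, moves the difference of every gene by the same −0.34, which puts this median at 0.15 and Gstm6 and Gstm7 below 0. Against PBS replicate 2 alone the mu median was −0.27, compared with −1.05 for the alpha class and −0.82 for the 5 Ugt2b genes, differences between classes that were not tested.

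Gstm1, the main hepatic mu enzyme, had signals of 7759 and 30227 on the PBS arrays and 24841 and 22161 on the G-CSF arrays, a difference of 0.61 ± 0.66 (95% interval −1.08 to 2.31). Its 4 probe sets gave 0.54 to 0.61. Gstm3 had 13586 and 38747 on the PBS arrays and 33560.0 and 30826 on the G-CSF arrays. The PBS gap of this probe set, whose _s_at ending marks probes shared between transcripts, was 2.85-fold, whereas the dimmer, gene-specific Gstm3 probe set had a gap of 12.9-fold from signals of 472 and 6089.5. The size of the spread between PBS arrays thus depended on the probe set, while the Gstm3 difference was 0.49 and 0.53 by these probe sets. Mu class transcripts are close in sequence, so signals of Gstm1 (an _x_at probe set, open to cross-hybridisation) and Gstm3 may be mixed.

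Gstm2 had signals of 828 and 2733 on the PBS arrays and 2637 and 1957 on the G-CSF arrays, and Gstm4 507 and 2656 on the PBS arrays and 1764 and 1273 on the G-CSF arrays. Gstm6 was below background in PBS replicate 1 (62.9) and had 467 in PBS replicate 2 and 259 and 195 with G-CSF. Gstm5, a mu member best known from brain and testis, was one of 2 members whose groups did not overlap, both higher with G-CSF and neither 2-fold apart (0 members were both 2-fold apart and without overlap, against 5.56% of all; 2 of 34 did not overlap, where 18.6% of all tested genes were higher without overlap; 0 members were lower without overlap, against 12.1%). Its signals were 497 and 1468 on the PBS arrays and 1593 and 1856 on the G-CSF arrays, and the gap between the groups was small beside that within PBS. The difference was 0.98 ± 0.57 (limma adjusted p = 0.988), 1.74 against PBS replicate 1 alone and 0.22 against PBS replicate 2 alone. Gstm7 departed from its neighbours, with 469.6 and 386 on the PBS arrays and 665 and 367 on the G-CSF arrays, so that neither the groups nor the PBS arrays were far apart. Its other probe set, however, had 184 and 611 with PBS, the order seen in the rest of the cluster.

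Gstp1, the pi class enzyme of liver and bile duct, had signals of 13398 and 37298 on the PBS arrays and 31478 and 27482 on the G-CSF arrays. The difference was 0.40 ± 0.53. Gstp1 has a near-identical neighbour, Gstp2, whose signal it may share. The related Gstp3 had 212 and 361 on the PBS arrays and 410.3 and 339.9 on the G-CSF arrays, a much narrower spread. Among the theta class, which handles small halogenated molecules, Gstt1 had 1908 and 6717 on the PBS arrays and 3527 and 4284 on the G-CSF arrays, and Gstt3 had 188 and 853 on the PBS arrays and 454 and 375 on the G-CSF arrays. Gstt2 was the lowest Gst difference (−0.36 ± 0.40), with 350.4 and 619 on the PBS arrays and 333 and 388 on the G-CSF arrays. Here PBS replicate 2 alone stood above the other arrays. Gstk1, of mitochondria and peroxisomes, had 603 and 1851 on the PBS arrays and 925 and 1055 on the G-CSF arrays. Gstz1, a step in tyrosine breakdown, had 464 and 1856 on the PBS arrays and 1065 and 1070.4 on the G-CSF arrays.

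Gsto1, an omega class transferase with thiol-reducing activity that macrophages and other leukocytes also express, had the smallest spread of any tested member. Its signals were 7148 and 8834 on the PBS arrays and 8265 and 6309 on the G-CSF arrays, a range over arrays of 0.48 on the log2 scale. The difference was −0.14 ± 0.33 (95% interval −0.97 to 0.69), an interval narrower than for most members. Its SE was 0.84 without G-CSF replicate 1 (−0.33) and 0.83 without G-CSF replicate 2 (0.06). A second probe set gave 0.01, with 2662 and 2683 with PBS.

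UDP-glucuronosyltransferases of the 2B subfamily conjugate steroids, bile acids and many drugs. The Ugt2 genes sit in one cluster on chromosome 5, followed by Sult1b1, Sult1d1 and Sult1e1, 13 genes of which 11 are members. PBS replicate 1 was lowest and PBS replicate 2 highest for all 5 tested Ugt2b genes. Ugt2b36 had signals of 4739 and 21944 on the PBS arrays and 10849.7 and 10464 on the G-CSF arrays, and Ugt2b5 had 2989 and 16487 on the PBS arrays and 9859 and 9537 on the G-CSF arrays. The differences of these promoter neighbours were 0.06 ± 0.74 and 0.46 ± 0.82. Ugt2b34 had 2735 and 12994 on the PBS arrays and 10077 and 8495 on the G-CSF arrays, the highest Ugt difference (0.63 ± 0.76, and 0.70 by another probe set). Ugt2b35 had 2122 and 12053 on the PBS arrays and 7661 and 6069 on the G-CSF arrays.

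Ugt2b1, which had the widest spread of all tested members, had signals of 1271 and 9238 on the PBS arrays and 3547 and 2453 on the G-CSF arrays. Its PBS gap was 7.27-fold, and its difference of −0.22 ± 0.95 was 1.20 against PBS replicate 1 alone and −1.64 against PBS replicate 2 alone. Ugt2a3 had 1237 and 5346 on the PBS arrays and 2741 and 2564 on the G-CSF arrays. The Ugt3a enzymes, which use UDP sugars other than UDP-glucuronate, were both below 0, at −0.24 ± 0.56 for Ugt3a1 and −0.28 ± 0.75 for Ugt3a2. Ugt3a1 had 183 and 535 on the PBS arrays and 283 and 247 on the G-CSF arrays. By another probe set the Ugt3a1 difference was −0.44. Ugt3a2 had 1003 and 4042 on the PBS arrays and 2262 and 1211 on the G-CSF arrays.

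Ugt8a, which makes the galactolipids of myelin, was the member with the largest gap between G-CSF arrays. It had 142 and 438 on the PBS arrays and 121 and 367 on the G-CSF arrays, so the replicates of each group were further apart than the groups.

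The Ugt1a transcripts arise from 1 complex locus in which alternative first exons are joined to shared later exons, and 3 probe sets name 8 Ugt1a genes each. They cover bilirubin conjugation by Ugt1a1 but cannot assign signal to an isoform. The first had 15316 and 32439.5 on the PBS arrays and 26561 and 22109.7 on the G-CSF arrays, the second 9638 and 31736 against 20734 and 14769, and the third 2577 and 9912 against 6998 and 4967. Their differences were 0.12, 0.00049 and 0.22. In all 3 the G-CSF arrays lay between the PBS arrays. The probe set shared by Ugt2a1 and Ugt2a2, enzymes known from olfactory tissue, was below background on all 4 arrays, with signals of 6.13 to 49.4.

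Among sulfotransferases, Sult1a1, the main phenol sulfotransferase of liver, had signals of 772 and 3895 on the PBS arrays and 1345 and 2006 on the G-CSF arrays. The difference was −0.08 ± 0.80, with a 5.04-fold gap between PBS arrays. Sult1d1, which acts on catecholamines and prostanoids, had 1545 and 5405 on the PBS arrays and 2339 and 3879 on the G-CSF arrays. Another Sult1d1 probe set gave a difference of 0.33 in place of 0.06, with a PBS gap of 5.41-fold in place of 3.50-fold. Sult1b1, which sulfonates thyroid hormones, had 219 and 651 on the PBS arrays and 542 and 449 on the G-CSF arrays. Sult1e1, the oestrogen sulfotransferase, was below background in PBS replicate 1 (55.7) and had 228 in PBS replicate 2 and 197 and 85.6 with G-CSF. PBS replicate 2 was the highest array for each of these enzymes, and PBS replicate 1 the lowest for Sult1a1, Sult1b1 and Sult1d1.

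Sult1c1 was the other member without overlap, with 99.0 and 169 on the PBS arrays and 174 and 199 on the G-CSF arrays. PBS replicate 1 lay below background there (106), and the values of PBS replicate 2 and G-CSF replicate 1 were nearly equal. The difference was 0.45 ± 0.42 (limma adjusted p = 0.988). Sult2a2, a hydroxysteroid sulfotransferase, had 312 and 583 on the PBS arrays and 622 and 495 on the G-CSF arrays. Its relative Sult2a8, which acts on bile acids, had 279 and 1306 on the PBS arrays and 458 and 351 on the G-CSF arrays. PBS replicate 2 was at least 2-fold above all other arrays for Sult2a8, one of 4 such members (1.06% of all tested genes), with Gsta3, Ugt2b1 and Ugt2b36 as the others.

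The other 10 members lay below the filter. Gsto2, Gstt4, Sult2b1, Sult3a1, Sult4a1 and Sult6b1 were below background on all 4 arrays, so no fold is given. Sult1c2 was above background on 2 arrays (120.4 in PBS replicate 2 and 84.4 in G-CSF replicate 2). Sult5a1 was above it on 3 arrays (105, 99.1 and 114), as was Ugt2b37 (124, 127 and 70.3), in both cases all but PBS replicate 1. Ugt2b38 was above it in G-CSF replicate 2 alone (71.6). A signal below background sets no order between arrays.

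Set beside marker lists, the members moved over the arrays much as hepatocyte transcripts did, and macrophage and endothelial markers moved in the same direction. Against PBS replicate 2 alone, the G-CSF mean was lower by medians of −0.65, −0.96 and −0.70 for the Gst, Ugt and Sult members, −0.52 for 16 hepatocyte markers, −0.72 for 12 pericentral and −0.57 for 9 periportal hepatocyte genes, and 0.00066 for all genes. Macrophage and Kupffer cell markers had −0.42, endothelial markers −0.28, bile duct markers −0.06 and neutrophil markers 4.96. Each array was also centred on the median of its hepatocyte markers, an alternative chosen after the data were seen that shifted all differences by −0.34. The range of a member over the 4 arrays became smaller for 29 of the 34, and the median range went from 1.90 to 0.72. Over all tested genes the median range went from 0.94 to 1.69. It also narrowed for macrophage and Kupffer cell markers (1.33 to 0.58) and for endothelial markers (1.43 to 0.72). For stellate cell and bile duct markers it went from 1.45 to 1.01 and from 1.28 to 1.13. The narrowing was thus not particular to genes of hepatocytes. Alb, the albumin gene, had signals of 43301 to 52315 where the brightest probe sets reached 58436 to 63693, and its PBS replicate 1 minus PBS replicate 2 was −0.09. Whether signals near the top of the scale are compressed was not tested.

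**Figure D3:**
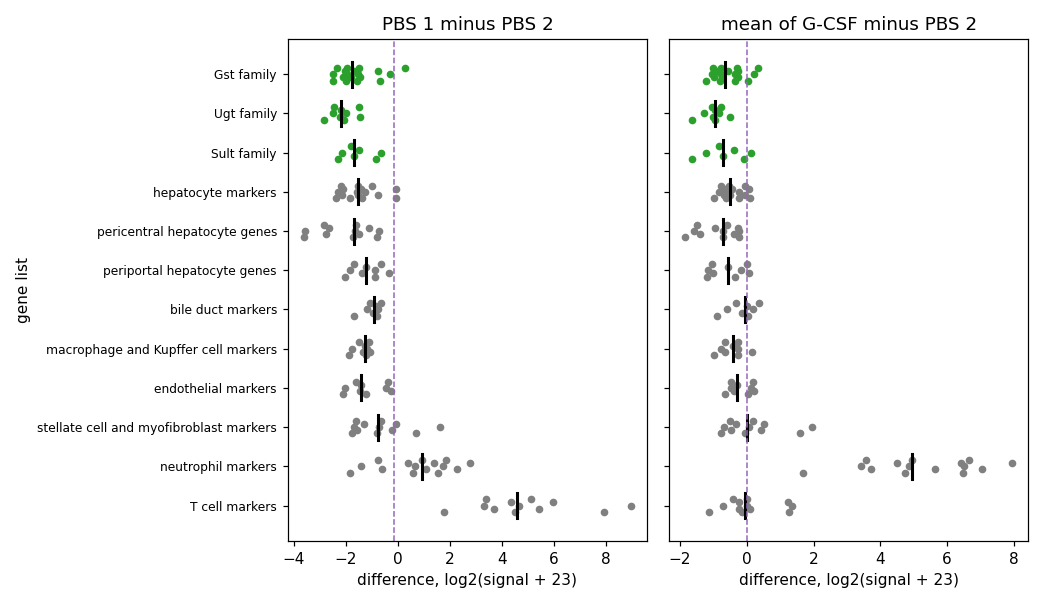
Differences between arrays for the tested members by family (green) and for marker lists (grey), on the log2(signal + 23) scale; each point is a gene, black bars are medians and the dashed line is the median of all tested genes. In the left panel (PBS 1 minus PBS 2) the medians of the enzyme families and the liver cell lists lie left of the line. Those of the T cell and neutrophil markers lie right of it. In the right panel (G-CSF mean minus PBS 2) only the neutrophil list has a median far above 0.

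Members that did not follow the hepatocyte markers were picked out after their values were seen. Gstm7, Gsto1, Gstt2, Sult1c1 and Gstp3 had a wider range after centring than before. Once centred, each lay above the mean of the other arrays in PBS replicate 1, by 1.45, 1.30, 1.13, 0.68 and 0.67. Centring raises every gene in PBS replicate 1 and lowers it on the other arrays. A gene that is level over the arrays therefore comes out higher in PBS replicate 1, and these values are not a separate result. For Sult1c1 the PBS replicate 1 signal (99.0) was below background. For Gstm7 the departure depended on the probe set. Its other probe set had 184 and 611 on the PBS arrays and 402 and 441 on the G-CSF arrays. Like the hepatocyte marker sum, it was lowest in PBS replicate 1 and highest in PBS replicate 2. Sult2a8 and Ugt2b1 kept a centred G-CSF level 1.10 and 1.09 below PBS replicate 2, which is a single array.

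**Figure D4:**
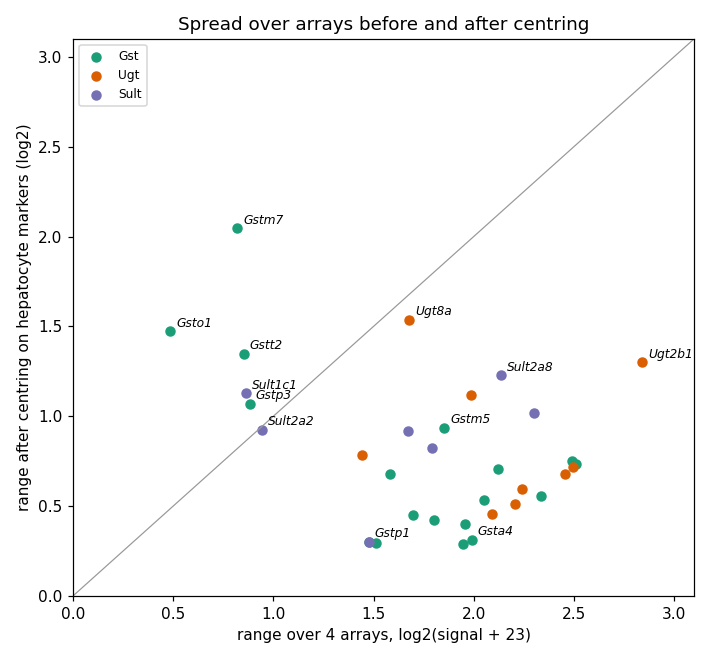
Range of each tested member over the 4 arrays, in log2 units, before (x axis) and after (y axis) centring each array on its hepatocyte markers; points below the diagonal became narrower, which was the case for 29 of 34. Gstm7, Gsto1, Gstt2, Sult1c1 and Gstp3 lie above the diagonal.

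The genes that supply and clear the conjugation reactions were read from lists, and none of them was called over all tested genes. Of 16 tested glutathione supply genes, 0 passed an unadjusted limma p of 0.05, against 3.52% of all tested genes, with a median of 0.27. Gclm, the modifier subunit of the enzyme limiting glutathione synthesis, had 858 and 3188 on the PBS arrays and 2389 and 2907 on the G-CSF arrays, and Gsr, glutathione reductase, had 2572 and 2443 on the PBS arrays and 4484 and 2873 on the G-CSF arrays. Gsr thus showed no PBS gap. Of 7 UDP-glucuronate genes and 11 sulfate donor genes 0 passed, with medians of 0.11 and 0.06. Ugp2, which makes UDP-glucose, had 3557 and 9153 on the PBS arrays and 9421 and 8358 on the G-CSF arrays. Papss2, the PAPS synthase of liver, had 1211 and 5069.9 on the PBS arrays and 3494 and 3902 on the G-CSF arrays. Slc35b2, a Golgi PAPS carrier, had the smallest p of its list, at −0.91 ± 0.38 (limma adjusted p = 0.988), and its PBS signals of 501 and 316 were not ordered like those of the enzymes.

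Among 15 other conjugation enzymes 0 passed an unadjusted p of 0.05 (median 0.14), and among 11 export pumps, which send conjugates into bile or blood, 0 passed (median 0.34). Abcc2, the canalicular pump for glutathione and glucuronide conjugates, had 853 and 4250.3 on the PBS arrays and 3979 and 2824 on the G-CSF arrays. Of 18 NRF2 target genes, 4 are also in the glutathione list. Of the 18, 1 had an unadjusted limma p below 0.05 (3.52% of all tested genes) and 0 passed after adjustment (median 0.32). This was Pgd, an NADPH-producing enzyme of the pentose phosphate pathway, with 13267.5 and 18259 on the PBS arrays and 32830.3 and 26974 on the G-CSF arrays (0.93 ± 0.30, limma adjusted p = 0.988). Pgd is also made by leukocytes, and the neutrophil marker sum was higher on the same arrays; the part of those cells was not tested. Of 13 xenobiotic receptors and their partners 0 passed (median 0.15), with Nfe2l2, which encodes NRF2, at 3229 and 5647 on the PBS arrays and 5022 and 5247 on the G-CSF arrays.

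The 5 tested membrane glutathione transferases and relatives, a family apart from the soluble enzymes, had a median of 0.21. Mgst2, a microsomal relative, had signals of 2603 and 1047 on the PBS arrays and 3024 and 2531 on the G-CSF arrays, so that PBS replicate 2 was the lowest. Mgst1, a liver microsomal enzyme, had signals of 25309.5 and 47715 on the PBS arrays and 41507.5 and 36750.5 on the G-CSF arrays, the order of the soluble enzymes. Alox5ap, a family member that presents arachidonate to 5-lipoxygenase in neutrophils, was the one gene of this list with an unadjusted limma p below 0.05. Of all tested genes, 3.52% had such a p. Its signals of 849 and 2830.0 on the PBS arrays and 17692 and 13448.5 on the G-CSF arrays gave a difference of 3.29 ± 0.62 (limma adjusted p = 0.422), in the direction of the neutrophil markers.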

How the data were processed

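Total RNA (40 ng) was labelled with the 3' IVT Express kit, per the labels' protocols. The deposited intensity values are MAS5 signals, per the submitters' processing notes, on a linear scale and scaled per array (2% trimmed mean 500.0 on each), with no MAS5 version given in the sources used here. The number of arrays limits the precision. A pseudocount of 23 was added before log2, and 12187 genes with a mean signal above 95.0 were tested with limma 3.58.1 in R 4.3.3 (lmFit, eBayes with trend, 2 residual degrees of freedom, prior 3.13), two-sided, with Benjamini-Hochberg adjustment. The procedure was tested on simulated data, with independent noise for each gene that was smaller than the spread within these groups. Such data cannot show how it behaves where 1 array departs for many genes together. As background, each array took the brightest of 27 control probe sets for bacterial transcripts, taken as not spiked in because all were dim, which was 106 and 94.6 (PBS) and 86.4 and 63.0 (G-CSF). Symbols come from the platform table, and all 44 members matched current RefSeq symbols by Entrez ID. Members and lists were chosen with earlier results of these data known. Signals on every array are given for members with an unadjusted p below 0.05, up to 10 per direction without overlap, the 10 with the highest mean signal and those 4-fold apart on 1 array; of each supply or clearance list, named genes are among the 4 with the smallest p. The other members were described after their values were seen. Alternatives were 2 normalizations, 2 pseudocounts, 2 filters, 2 variance models, 2 probe set choices, a replicate block and each array left out, and, chosen once results had been seen, hepatocyte marker centring and array weights. Python 3.11.15 (pandas 2.3.3, matplotlib 3.10.9) made the counts and plots.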

Additional observations from a re-analysis of the deposited data

How the results depend on the processing

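Over all genes, 0 calls became 11 with specific probe sets only, 33 with array weights and 92 with the replicate number as a block, and 6 to 4689 with 1 array left out. Members called stayed at 0 in every setting except with a PBS array left out, from 0 to 23 in all, with 7 when PBS replicate 1 was dropped and 23 when PBS replicate 2 was. The replicate block called 0 members; replicates share only a number, and their deviations from the group means correlated at −0.04. Members at least 2-fold apart without overlap numbered 0, but 1 with a pseudocount of 1, 1 with no filter, and 0 to 21 with 1 array left out (9 without PBS replicate 1, 1 without G-CSF replicate 1). With 1 array left in a group, no overlap means only that the other group's arrays lie on the same side of that array. This is a looser rule than with all 4 arrays. The share of all tested genes meeting it is not given, so these counts are not a result about the enzymes. With 1 array left out, the median difference ran from −0.79 to 1.08 over the members, −0.65 to 1.15 over Gst, −0.96 to 1.16 over Ugt and −0.70 to 0.95 over Sult members. Single differences then ran from −1.05 to 1.07 for Gsta2, −1.21 to 1.28 for Gsta3 and −0.37 to 1.59 for Gstm1. They ran from −0.27 to 1.24 for Gstm3, −0.34 to 1.13 for Gstp1 and −0.33 to 0.06 for Gsto1. The ranges were −0.49 to 1.75 for Ugt2b34, −0.82 to 1.67 for Ugt2b35, −1.04 to 1.16 for Ugt2b36 and −0.76 to 1.69 for Ugt2b5. For Gstm5 they were 0.22 to 1.74 and for Sult1c1 0.12 to 0.77. The groups of Gstm5 and Sult1c1 did not overlap, so leaving out 1 array could not turn their sign. Signs also turned with median centring for Gsta2 (-0.053) and Gsta3 (-0.027), without G-CSF replicate 2 for Gsta2 (-0.15), Gsta3 (-0.0052) and Gsto1 (0.057), with specific probe sets only for Gsto1 (0.0085), and with hepatocyte marker centring for Gsta2 (−0.33), Gsta3 (−0.30) and Ugt2b36 (−0.28). Each centring moves every gene by 1 constant (−0.34 with hepatocyte markers) that exceeds these small differences; the cause of the other turns was not tested. Signal at background on PBS replicate 1 limits Gstm6, Sult1c1 and Sult1e1. The member 2-fold apart without overlap when no filter was used was Gsto2, which was below background on all 4 arrays.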
